A study of Homo sapiens with 16 samples.

Results

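The RUNX family and its shared partner were examined as 4 genes, *RUNX1*, *RUNX2*, *RUNX3* and *CBFB*, taken by symbol from the 26475 genes counted by RNA-seq in MCF10A cells. MCF10A is a spontaneously immortalized, non-tumorigenic line of human breast epithelial cells. The study asked whether inhibition of the collagen receptor DDR1 and inhibition of RUNX act on the same genes, and these 4 genes encode the proteins that the RUNX inhibitor is aimed at. There were 16 libraries, 4 in each of 4 groups. Control cells received DMSO as vehicle and no collagen. The collagen group received DMSO and then collagen I at 0.05 mg/mL for 24 h. The DDR1i group received DDR1-IN-1, a DDR1 kinase inhibitor, at 2 μM for 48 h, with the same collagen for the last 24 h. The RUNXi group received a small molecule that blocks binding of RUNX proteins to CBFβ, at 5 μM for 48 h, again with collagen for the last 24 h. All groups are 1 cell line, and the labels do not say whether libraries of a group came from separate cultures, so that p-values measure only the spread between these libraries. The authors removed collagen replicate 3 as an outlier of their principal component analysis, and it is left out of the collagen group here unless stated.

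RUNX proteins are transcription factors that bind DNA through a runt domain, and CBFβ, which does not itself bind DNA, holds that domain in a form that binds DNA more tightly and protects RUNX1 from degradation. RUNX1 is best known from blood formation, RUNX2 from bone and RUNX3 from T cells and sensory neurons, while in the breast *RUNX1* and *CBFB* are recurrently mutated in cancer. RUNX factors can bind their own promoters, so that transcript levels can in principle respond when binding is blocked. The counts measure transcripts, not protein, binding or activity, and since both drugs act on proteins, no transcript level here checks whether an inhibitor worked.

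Since RUNX factors can bind their own promoters, 3 of the 5 promoter windows that RefSeq gives for the members are shown. Each runs from 250 bases before to 50 bases after a transcription start on GRCh38.p14, read 5′ to 3′ on the strand of the gene. Sequence outside the promoter windows was not searched. Capitals mark the RUNX binding motif, searched as TGTGGT and as its reverse complement ACCACA. The first window, at the upstream *RUNX2* start (chr6:45328080-45328379, plus strand), has the most matches. The second, at the upstream *RUNX3* start (chr1:24964961-24965260, minus strand), belongs to the member without counts. The third, at the *RUNX1* start in the table (chr21:34888650-34888949, minus strand), belongs to the most abundant RUNX transcript.
RUNX2 upstream start: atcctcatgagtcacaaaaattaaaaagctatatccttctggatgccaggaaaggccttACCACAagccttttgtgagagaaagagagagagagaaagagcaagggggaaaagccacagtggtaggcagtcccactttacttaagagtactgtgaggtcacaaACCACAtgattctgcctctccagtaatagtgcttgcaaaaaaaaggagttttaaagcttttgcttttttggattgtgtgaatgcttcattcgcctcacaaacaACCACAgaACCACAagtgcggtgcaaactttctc
RUNX3 upstream start: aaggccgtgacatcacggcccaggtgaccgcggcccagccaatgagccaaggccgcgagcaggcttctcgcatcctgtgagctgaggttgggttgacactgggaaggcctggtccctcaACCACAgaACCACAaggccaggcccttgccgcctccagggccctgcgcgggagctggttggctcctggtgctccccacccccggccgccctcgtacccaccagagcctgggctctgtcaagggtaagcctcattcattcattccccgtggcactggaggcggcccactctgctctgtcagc
RUNX1: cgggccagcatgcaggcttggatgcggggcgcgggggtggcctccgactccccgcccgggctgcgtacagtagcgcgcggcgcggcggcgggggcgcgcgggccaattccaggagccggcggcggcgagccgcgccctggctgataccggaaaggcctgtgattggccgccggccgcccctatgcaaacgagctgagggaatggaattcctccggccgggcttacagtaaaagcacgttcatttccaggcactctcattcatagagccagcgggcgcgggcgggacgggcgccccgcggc
The *RUNX2* window held 4 matches and the *RUNX3* window 2, all read as ACCACA, and the *RUNX1* window held none. The windows at the downstream starts of *RUNX2* (chr6:45422025-45422324) and *RUNX3* (chr1:24930227-24930526) also held none. For *RUNX1* only the window shown was in the table, so any other *RUNX1* start was not searched. The lack of a match there is not a difference between the genes. Of 35116 windows of this length in the table, 13.1% held at least 1 match and 0.0142% held at least 4. A match is a run of letters and not a measured binding site. *CBFB* was not matched in the promoter table.

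Total counts ranged from 12184619 to 44332378 per library (median 23175004.5). All 9 epithelial and basal markers were present, from *EPCAM* at a median of 32.6 CPM (CPM, the count of a gene relative to the TMM-scaled total of its library) to *KRT5* at 9354 CPM. The blood markers *PTPRC*, *SPI1*, *CD3E* and *CD79A* had a median of 0 CPM. Of the fibroblast and bone markers, *BGLAP*, *SP7* and *PDGFRA* had a median of 0 CPM and *COL1A1* of 3.03 CPM. Of the endothelial markers, *VWF* and *CDH5* had a median of 0 CPM and *PECAM1* of 0.658 CPM. Of the hormone receptors, *PGR* was at 0 in all 16 libraries and *ESR1* had a median of 0.295 CPM. Libraries differed in how many genes they held at very low counts, from 116 genes with 1 to 5 counts in control replicate 2 to 2574 in control replicate 1. Among 824 genes with a median of 2 to 4 CPM, the share listed at 0 was 17.7% in control replicate 2 and 11.3% in control replicate 3, and at most 3.88% in any other library. This range of levels holds *RUNX2*, and its values are read beside these shares.

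*RUNX1* was the predominant RUNX transcript, *RUNX2* was low and *RUNX3* had no counts. Levels were compared between genes per length, in TPM, which are counts per kilobase of the canonical transcript scaled to the same sum in every library. The median over 16 libraries was 20.2 TPM for *RUNX1* (5971 bases), 1.05 for *RUNX2* (5540 bases) and 42.9 for *CBFB* (3103 bases). *CBFB* lay above 79.9%, *RUNX1* above 67.1% and *RUNX2* above 33.5% of the 17160 genes with counts and a length. The ranges over libraries did not overlap between any of these 3 genes, with *CBFB* at 34.5 to 48.1, *RUNX1* at 12.4 to 23.3 and *RUNX2* at 0 to 1.96 TPM. *RUNX1* made up 94.9% ± 2.21 (SD, n = 16) of the RUNX transcripts per length, and *RUNX2* the remaining 5.10% ± 2.21. The partner outnumbered *RUNX1* in every library, by a ratio per length of 2.24 ± 0.540 (SD, n = 16), from 1.62 to 3.56. With the length of all merged exons in place of the canonical transcript the ratio was 3.89 and the *RUNX2* share 8.60%.

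**Figure D1:**
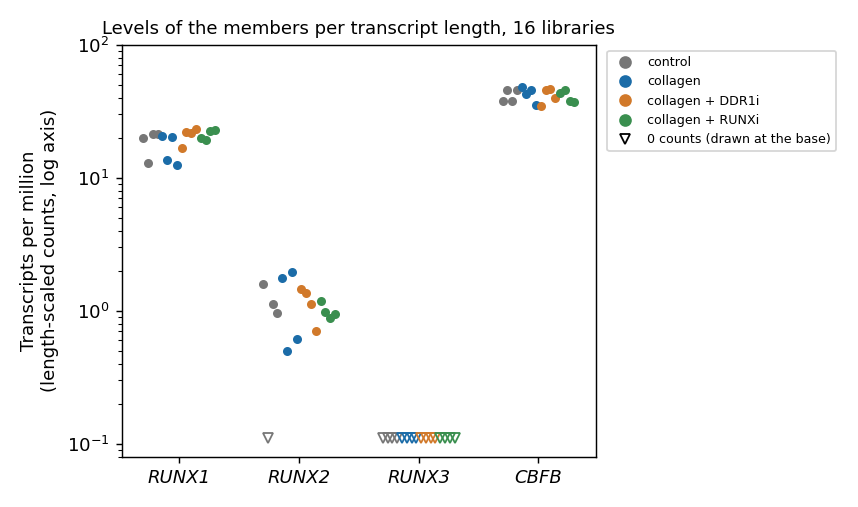
Level of each member per transcript length in the 16 libraries, in TPM on a log axis, with points coloured by group and open triangles for libraries with 0 counts, drawn at the base of the axis. *CBFB* lies above *RUNX1* and *RUNX1* above *RUNX2* in every library, *RUNX2* is at 0 in 1 library and *RUNX3* is at 0 in 16.

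*RUNX1* encodes the RUNX factor of the study's pathway and lies at chr21:36160098-37376965 on the minus strand of GRCh37. Its normalized level was 55.7, 36.8, 63.2 and 59.2 CPM in control replicates 1 to 4. It was 61.0, 42.2 and 45.5 CPM in collagen replicates 1, 2 and 4, and 57.2 CPM in collagen replicate 3. Control replicate 2 was the lowest of all 16 libraries, and within the collagen group replicate 1 stood above the other two. With DDR1i the level was 53.1, 59.8, 63.8 and 69.5 CPM, and with RUNXi it was 57.7, 54.7, 66.8 and 65.5 CPM. In each inhibitor group all 4 libraries lay above the collagen median of 3 libraries and 2 lay above collagen replicate 1, so that the groups overlapped.

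Neither inhibitor changed *RUNX1* past the threshold, an adjusted p of 0.05 in the quasi-likelihood test of edgeR, adjusted over all genes by the Benjamini-Hochberg method. The log2 fold change against collagen was 0.30 with RUNXi (95% interval -0.01 to 0.61, adjusted p = 0.260) and 0.31 with DDR1i (-0.000983 to 0.62, adjusted p = 0.279). In folds, the interval with RUNXi ran from 0.990 to 1.53 and that with DDR1i from 0.999 to 1.54. These comparisons share the 3 collagen libraries. Their values move with single collagen libraries: without collagen replicate 2 they were 0.17 with RUNXi and 0.19 with DDR1i, and without collagen replicate 1 they were 0.45 and 0.47 (adjusted p = 0.0957 and 0.110). They also move with transcript length, since removing the trend of expression with length from each library gave 0.11 and 0.09, and *RUNX1* is longer than 83.5% of the genes with counts.

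The direct comparison of DDR1i with RUNXi gave a log2 fold change of *RUNX1* of 0.01 (95% interval -0.27 to 0.30, adjusted p = 0.999). Against the control, which shares no library with the collagen group, the values were 0.18 with RUNXi (-0.13 to 0.50, adjusted p = 0.890) and 0.20 with DDR1i (-0.12 to 0.51, adjusted p = 0.998). Without control replicate 2, the lowest library, they were 0.05 and 0.06. Collagen against control gave -0.11 (-0.54 to 0.32, adjusted p = 0.890), and 3 of 4 control libraries lay between the collagen libraries or above them.

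*CBFB*, at chr16:67062887-67134961 on the plus strand of GRCh37, encodes CBFβ, the partner whose binding to RUNX proteins RUNXi blocks. Its level was 54.5, 67.9, 57.7 and 66.7 CPM in the control libraries. It was 74.8, 68.5 and 67.7 CPM in collagen replicates 1, 2 and 4 and 67.9 CPM in collagen replicate 3. The collagen libraries were the highest as a group, with the top value in replicate 1. The level was 56.7, 65.0, 70.1 and 61.6 CPM with DDR1i, and 65.0, 67.7, 58.0 and 55.0 CPM with RUNXi. All 4 RUNXi libraries lay below the 3 collagen libraries, the nearest RUNXi and collagen libraries both at 67.7 CPM, while the DDR1i group overlapped both. The share of all genes separated in this way was not counted, so the separation does not set *CBFB* apart. By the test, 4.05% of all genes were called for RUNXi against collagen, and *CBFB* was not.

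The log2 fold change of *CBFB* against collagen was -0.20 with RUNXi (95% interval -0.47 to 0.07, adjusted p = 0.416) and -0.15 with DDR1i (-0.43 to 0.12, adjusted p = 0.617). It was 0.05 for DDR1i against RUNXi (-0.21 to 0.30, adjusted p = 0.999) and 0.20 for collagen against control (-0.13 to 0.53, adjusted p = 0.656). Against the control it was -0.0039 with RUNXi (-0.27 to 0.26, adjusted p = 0.998) and 0.05 with DDR1i (-0.22 to 0.31, adjusted p = 0.998). None of the 6 passed the threshold. *CBFB* was the steadiest member, with a coefficient of variation over 16 libraries of 9.40%, beside 15.8% for *RUNX1* and 44.8% for *RUNX2*.

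Per length, the collagen libraries had 2.78 ± 0.390 *CBFB* transcripts per *RUNX1* transcript (SD, n = 3), from 2.36 to 3.12. The ratio was 1.99 ± 0.192 with DDR1i and 1.96 ± 0.373 with RUNXi (SD, n = 4 each). It was 2.34 ± 0.827 in the control (SD, n = 4), where replicate 2 reached 3.56, and 2.28 in collagen replicate 3. The DDR1i range, 1.71 to 2.11, lay below the collagen libraries, and the RUNXi range, 1.62 to 2.38, overlapped them. These ratios are a description, were not tested and were not set against ratios of other genes. A different mix of cells and a different level per cell cannot be told apart in bulk RNA.

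**Figure D2:**
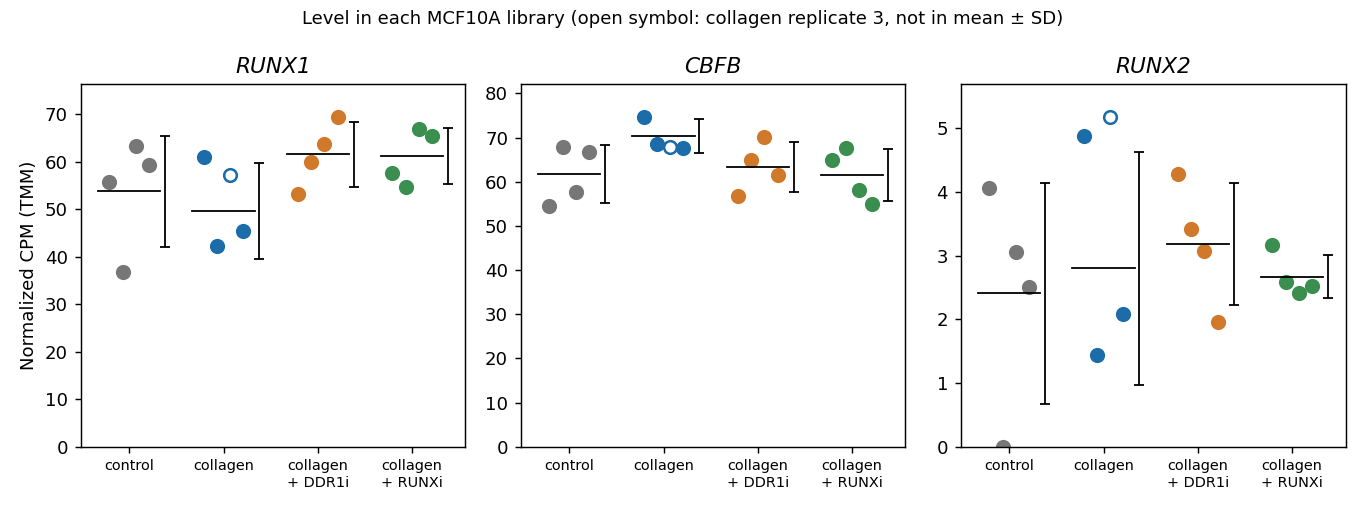
Normalized CPM of *RUNX1*, *CBFB* and *RUNX2* in each library by group, with the group mean as a line and the SD as a bar beside it, and collagen replicate 3 as an open symbol outside the mean. The *RUNX1* groups overlap, the *CBFB* values with RUNXi lie just below those with collagen, and *RUNX2* spans 0 to 4.07 CPM within the control alone.

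*RUNX2* lies at chr6:45295894-45632086 on the plus strand of GRCh37 and had 1155 counts in all, against 21457 for *RUNX1* and 24024 for *CBFB*. Its level was 4.07, 0, 3.05 and 2.52 CPM in the control libraries. It was 4.88, 1.44 and 2.08 CPM in collagen replicates 1, 2 and 4, and 5.18 CPM, the highest of all, in collagen replicate 3. The spread within either group exceeded the distance between their means. The level was 4.28, 3.42, 3.07 and 1.96 CPM with DDR1i and 3.16, 2.58, 2.42 and 2.52 CPM with RUNXi, the tightest group. The 0 came from control replicate 2, the library in which 17.7% of genes at this level were listed at 0. The overlapping *SUPT3H*, on the opposite strand with no shared exon bases and 2075 counts in all, was also at 0 in that library. Why low counts were missing there was not tested.

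*RUNX2* gave a log2 fold change against collagen of -0.07 with RUNXi (95% interval -1.16 to 1.03, adjusted p = 0.966) and 0.19 with DDR1i (-0.91 to 1.29, adjusted p = 0.916). The other values were 0.26 for DDR1i against RUNXi, 0.21 for collagen against control, 0.13 for RUNXi against control and 0.39 for DDR1i against control, with adjusted p from 0.961 to 0.999. The widest interval, for collagen against control, ran from -1.89 to 2.31, so that a change of several fold in either direction was within the error. Without control replicate 2 the last 3 values were -0.19, -0.26 and -0.0015, and no direction is drawn from them.

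**Figure D3:**
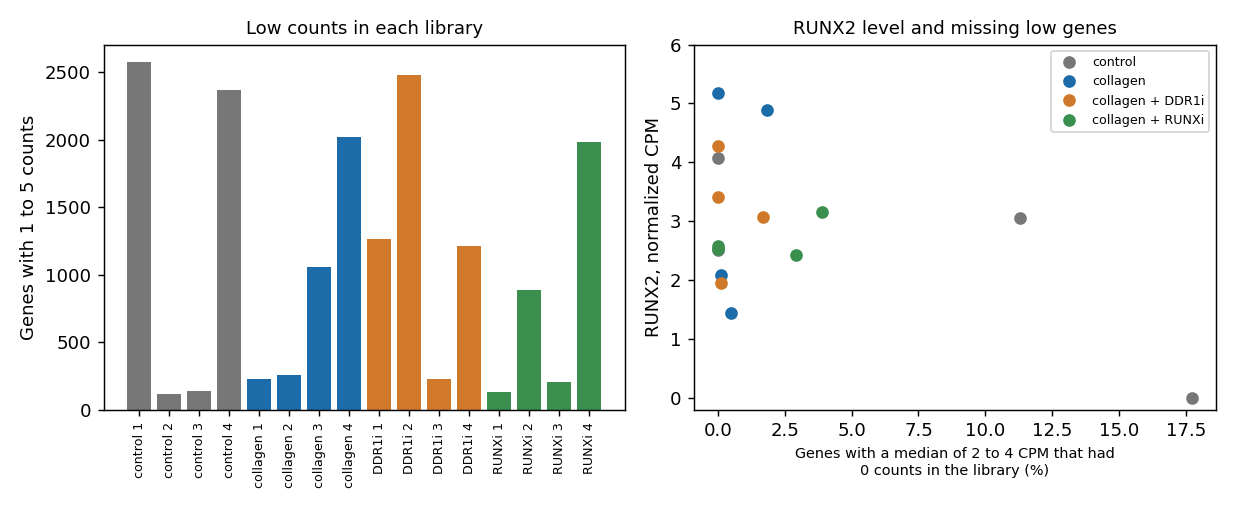
Genes with 1 to 5 counts in each library (left) and the *RUNX2* level against the percentage of 824 genes with a median of 2 to 4 CPM that had 0 counts in that library (right), coloured by group. Control replicate 2, with 17.7% of these genes at 0, is the library in which *RUNX2* is at 0, while control replicate 3, with 11.3%, holds *RUNX2* at 3.05 CPM.

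*RUNX3* (chr1:25226002-25291612, minus strand, GRCh37) had 0 counts in all 16 libraries. It was in no test, like the 7683 genes (29% of the table) without counts. In control replicate 1, where 2574 genes had 1 to 5 counts and none of the 824 genes at 2 to 4 CPM was at 0, a count of 0 allows a level of up to 0.0677 CPM, by a floor of 3 counts that covers counting error only. In libraries that list genes of 2 to 4 CPM at 0, such as control replicate 2, a floor of this kind is no bound. *RUNX3* was thus listed at 0 with and without collagen and with either inhibitor.

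Of the 3 members tested, none was called in any of the 6 comparisons, and none had an unadjusted p under 0.05. Of all genes tested, 4.05% were called for RUNXi against collagen, 2.47% for DDR1i against collagen and 0.568% for DDR1i against RUNXi. The percentage was 0.401 for RUNXi against control, 0.212 for DDR1i against control and 0 for collagen against control, where 1754 of 13092 genes had an unadjusted p under 0.05. DESeq2 called none of the members either, and it gave no adjusted p for *RUNX2* in 3 comparisons. Of all genes it called more than edgeR. It called 1144 of 13548 for RUNXi against collagen, 824 of 13548 for DDR1i against collagen and 415 of 13092 for collagen against control. Against the control it called 107 of 13213 with RUNXi and 65 of 13213 with DDR1i. At these background rates, a count of 0 among 3 members does not set them apart from other genes.

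**Figure D4:**
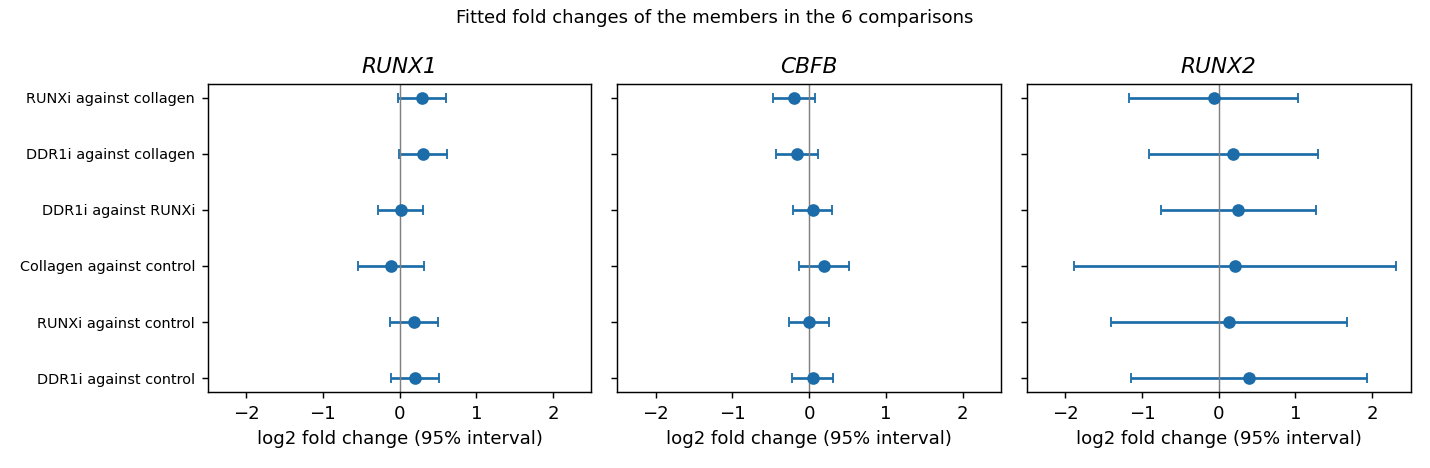
Fitted log2 fold changes of *RUNX1*, *CBFB* and *RUNX2* in the 6 comparisons, with 95% intervals. All 18 intervals include 0, and those of *RUNX2* are the widest, reaching from -1.89 to 2.31 for collagen against control.

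*DDR1*, the receptor that DDR1i inhibits, was abundant in all groups, from 108 to 163 CPM. Its log2 fold change against collagen was 0.14 with RUNXi (adjusted p = 0.579) and -0.02 with DDR1i (adjusted p = 0.966). It was not called in any comparison.

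Coregulators carry the activity of RUNX proteins on DNA, with the acetyltransferases p300, CBP and the KAT6 enzymes as activators and the TLE proteins, SIN3A and histone deacetylases as repressors. Of 17 listed, 15 were tested, and none passed the test in any comparison. With RUNXi against collagen 6 of the 15 had an unadjusted p under 0.05, as did 21.1% of all genes tested. By smallest p they were led by *KAT6A* with a log2 fold change of 0.54 (adjusted p = 0.0504) and *EP300* with 0.57 (adjusted p = 0.114). With DDR1i *KAT6A* and *EP300* gave 0.55 and 0.59. Collagen replicate 3 had 95.4 CPM of *KAT6A* and 43.6 CPM of *EP300*. The other collagen libraries had 41.1 to 62.4 and 17.8 to 35.4 CPM. Of the 6, the repressors *HDAC1* (-0.28) and *AES* (-0.24) had values below 0. The list's median log2 fold change was 0.27 with RUNXi and 0.18 with DDR1i, where the median over all genes was 0.01 and 0.00. Against the control it was -0.09 with RUNXi, with 2 of 15 genes above 0, and -0.04 with DDR1i, and it was -0.32 for collagen against control. DESeq2 called *KAT6A* higher with each inhibitor and lower for collagen against control, and no other gene of the list. Against collagen it called 1144 of all 13548 genes with RUNXi and 824 with DDR1i.

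Of 14 enzymes that modify or degrade RUNX proteins, all were tested, and 1 passed the test of edgeR. *HIPK2*, a kinase that phosphorylates RUNX1 and p300, rose with RUNXi against collagen by a log2 fold change of 0.94 (adjusted p = 0.0219), from 49.0 to 84.7 CPM in collagen to 107 to 147 CPM with RUNXi. Collagen replicate 3 had 112 CPM, inside the RUNXi range, and with it the fold change was 0.71 (adjusted p = 0.224). With the length trend removed it was 0.59 (adjusted p = 0.0566). The call was kept in 8 of 11 fits that leave out 1 library and lost without collagen replicate 4, RUNXi replicate 3 or RUNXi replicate 4. With DDR1i against collagen edgeR gave 0.71 (adjusted p = 0.0749), which DESeq2 called (adjusted p = 0.0139). DESeq2 also called *HIPK2* higher and *CDC20*, an activator of the anaphase-promoting complex, lower with RUNXi, and neither tool called a gene of the list against the control.

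Of 17 transcription factors that bind DNA beside RUNX, 13 were tested against collagen, and *GATA1*, *TAL1* and *SPI1*, which were not, were at 0 in 9 or more libraries. None passed with RUNXi, where *SMAD3*, a transducer of TGF-β signals, had a log2 fold change of 0.46 (adjusted p = 0.0994) and *GATA2*, a blood stem cell factor, 0.81 (adjusted p = 0.306). With DDR1i *SMAD3* rose by 0.72 (adjusted p = 0.0196), from 29.9 to 31.8 CPM in collagen to 40.7 to 62.6 CPM. Collagen replicate 3 had 48.7 CPM, inside the DDR1i range, and with it the value was 0.52 (adjusted p = 0.454). With the length trend removed it was 0.48 (adjusted p = 0.132). The call was kept in 8 of 11 fits that leave out 1 library and lost without collagen replicate 4, DDR1i replicate 3 or DDR1i replicate 4. Against the control *SMAD3* with DDR1i was 0.46 (adjusted p = 0.519), with control libraries at 33.3 to 41.4 CPM. DESeq2 called *SMAD3* with DDR1i against collagen, and *FLI1* and *JUN* higher with DDR1i against control. In that last comparison edgeR called none, and 5 of 13 had an unadjusted p under 0.05, as did 5.13% of all genes tested.

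Of 24 genes known as RUNX targets in blood, bone or epithelium, 14 were tested. The untested 10 were blood, bone or luminal genes such as *IL3* and *RSPO3*, both without counts, and *BGLAP* and *ELF5*, with 30 and 2 counts in all. *CLDN1*, a tight junction claudin, was the only gene of the list called by edgeR, while DESeq2 also called *CCND1*, which encodes cyclin D1, with both inhibitors. *CLDN1* was higher with RUNXi than with collagen (log2 fold change 0.77, adjusted p = 0.0472), and lower with DDR1i than with RUNXi (-1.25, adjusted p = 0.00148). Its level was 27.2 to 31.2 CPM in collagen, 43.4 to 57.7 CPM with RUNXi and 14.8 to 34.8 CPM with DDR1i, and 22.3 CPM in collagen replicate 3. With collagen replicate 3 the first value was 0.85 (adjusted p = 0.0775), with the length trend removed it was 0.74 (adjusted p = 0.101), and its call was kept in 3 of 11 fits that leave out 1 library, those without DDR1i replicates 1, 3 or 4. The value between the inhibitors kept its call when any library was left out, and lost it (-1.14, adjusted p = 0.161) with 7 libraries left after removing those with many low genes at 0.

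Of 10 genes taken as RUNX1 targets, which the study names from single cells of organoids or lists with RT-qPCR primers, all were tested. With RUNXi against collagen 1 was higher and 4 were lower, where 2.59% of all genes tested were called higher and 1.46% lower. With DDR1i 1 was higher and 3 were lower, against 1.69% and 0.775% of all genes. *ID1*, a repressor of basic helix-loop-helix factors, fell by 1.18 on the log2 scale (adjusted p = 0.000431), from 119 to 170 CPM in collagen to 54.6 to 73.6 CPM. *CEBPD*, a transcription factor of epithelial growth arrest, fell by 0.79 (adjusted p = 0.0178), *ANP32B*, a histone chaperone, fell by 0.48 (adjusted p = 0.0187) and *DUT*, which clears dUTP, fell by 0.51 (adjusted p = 0.0255). *PLEC*, a cytoskeletal linker, rose by 0.88 (adjusted p = 0.0451). With DDR1i against the same collagen libraries *ID1* fell by 0.96, *CEBPD* by 0.79 and *ANP32B* by 0.45, and *PLEC* rose by 1.16 (adjusted p from 0.00595 to 0.0304). *DUT*, at -0.46 (adjusted p = 0.0505), did not pass in edgeR, but DESeq2 (adjusted p = 0.0123) and edgeR with the replicate block (0.0302) called it. *DUT* gave 0.05 for DDR1i against RUNXi (adjusted p = 0.999).

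These calls rest on the collagen libraries used. In collagen replicate 3 the level was 85.3 CPM for *ID1*, 54.5 CPM for *CEBPD* and 1779 CPM for *PLEC*, each outside the range of the other collagen libraries and toward the inhibitor groups. With it in the fit, 1 of the 10 was called with RUNXi (*ID1*, -1.03) and none with DDR1i, where 9 genes of all tested were called. With the length trend removed 1 was called with each inhibitor, *ID1* in both. None of the 10 was called against the control by edgeR, with 2 at an unadjusted p under 0.05 for RUNXi and 4 for DDR1i. DESeq2 called *ID1* lower with RUNXi and *MYC* lower with DDR1i against the control. For collagen against control it called *PLEC* lower (-0.72, adjusted p = 0.000101). *PLEC* had a mean of 1552 CPM in the control and 932 CPM in collagen. In edgeR *PLEC* against the control was 0.15 with RUNXi (adjusted p = 0.952) and 0.43 with DDR1i (0.998). *ID1* against the control was -0.86 with RUNXi (adjusted p = 0.0550) and -0.64 with DDR1i (0.396). With the replicate block edgeR called both (-0.82, adjusted p = 0.000282, and -0.64, 0.00459), and with the length trend removed it called the value with RUNXi (-0.95, 0.0160), as did 4 of 12 fits that leave out 1 library. When any of the 11 libraries was left out, *ID1* kept its call with both inhibitors. The others lost calls with RUNXi without RUNXi replicate 4, and all but *CEBPD* also without RUNXi replicate 3 or collagen replicate 4, *DUT* also without collagen replicate 2 and *PLEC* also without collagen replicates 1 or 2. With DDR1i, *CEBPD* lost its call without collagen replicate 1 or DDR1i replicates 2, 3 or 4, *ANP32B* without collagen replicate 4 or those 3 DDR1i replicates, and *PLEC* without collagen replicate 4.

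**Figure D5:**
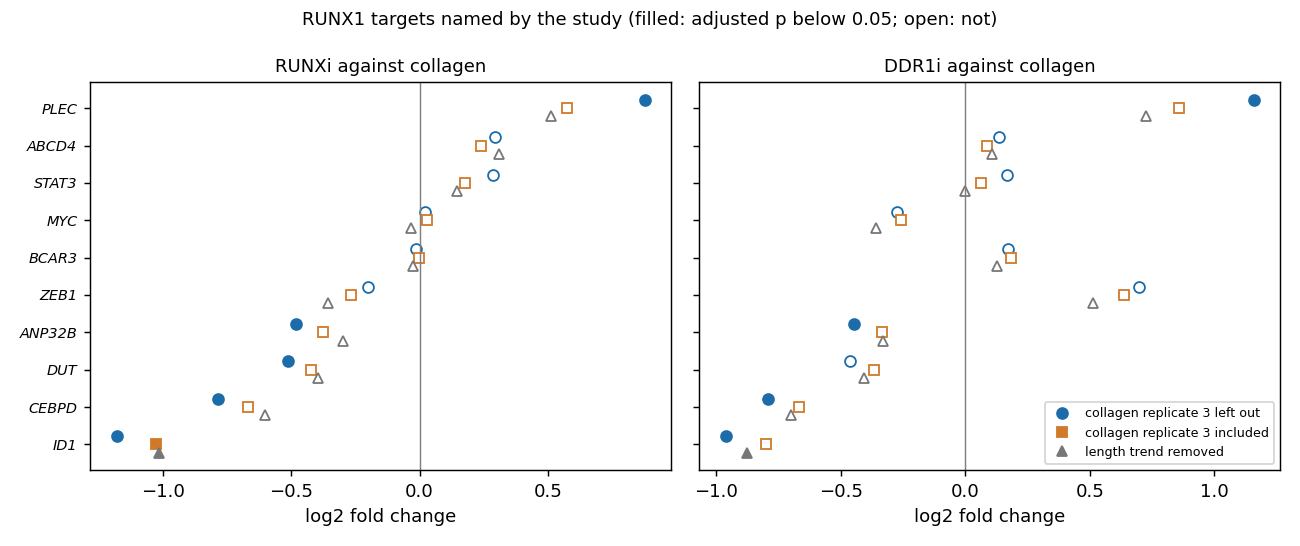
Log2 fold changes of the 10 genes that the study names as RUNX1 targets or lists with RT-qPCR primers. RUNXi against collagen (left) and DDR1i against collagen (right) are shown in 3 fits, with filled symbols for an adjusted p below 0.05. Without collagen replicate 3, 5 genes are called with RUNXi and 4 with DDR1i, with it 1 and 0, and with the length trend removed *ID1* alone in each.

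Among the epithelial markers, *KRT14*, a basal keratin, fell with DDR1i by 0.90 against collagen (adjusted p = 0.00123) and by 0.79 against the control (adjusted p = 0.000616), while with RUNXi it was not called. *ITGA6*, a basal integrin, rose against collagen by 0.59 with RUNXi, and these calls were kept whichever library of the fit was left out. Collagen replicate 3 had 768 CPM of *ITGA6*, between the other collagen libraries (593 to 630 CPM) and RUNXi (821 to 1098 CPM). The control ran from 589 to 1085 CPM, and against it *ITGA6* with RUNXi was called in 1 of 12 fits that leave out 1 library. Against collagen, *ITGA6* with DDR1i (0.44) and *KRT18*, a luminal keratin, with RUNXi (-0.46) were called too. These 2 calls were kept in only 2 and 4 of 11 fits that leave out 1 library. The summed level of the 9 markers was 10925 to 14014 CPM with DDR1i and 15280 to 20889 CPM over the control and collagen groups. Most of this sum came from *KRT5*, *KRT14* and *KRT17*, with means of 7984, 2059 and 1204 CPM with DDR1i. From collagen to DDR1i the mean rose from 609 to 828 CPM for *ITGA6* and from 76.5 to 94.7 CPM for *CDH1*. The fold change with DDR1i against collagen was above 0 for 2 of the 9 markers. The part of these marker changes in the members' values was not tested.

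The genes whose levels ran most like each member over 15 libraries, without collagen replicate 3, are given as a description, since the libraries share treatment groups, depth and low-count behaviour. For *RUNX1* they were *ZSWIM6* (Pearson r = 0.901), *RBM5-AS1* (0.901) and *DGCR8* (0.897), which held values of 0.814 to 0.877 without control replicate 2. For *CBFB* they were *RAB18* (0.804), *ANP32E* (0.774) and *MTFR1* (0.772), at 0.765 to 0.813 without that library. For *RUNX2* they were *KCTD7* (0.959), *S1PR2* (0.957) and *SLMO1* (0.956), which had 0, 0 and 1 counts in control replicate 2. Without that library these values dropped to 0.510 to 0.591. Among the members, *RUNX1* and *RUNX2* had an r of 0.691, which was 0.303 without control replicate 2. *CBFB* had an r of -0.34 with *RUNX1* and -0.21 with *RUNX2*.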

How the data were processed

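RNA-seq of 16 MCF10A libraries (TruSeq, NovaSeq, paired-end) was used. The authors aligned reads to GRCh37 with STAR and deposited raw counts per gene. The counting tool, annotation and use of strand are not given in the sources used here, so overlapping genes are uncertain. Of 26475 entries, 28 have a date in place of a symbol, and no column lacked a sample. Groups came from the labels, and doses from the study's methods. Gene positions and lengths came from GENCODE on GRCh37 (23930 names matched), and promoters from RefSeq on GRCh38.p14.

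The main test was the robust quasi-likelihood fit of edgeR 4.0.16 under R 4.3.3, after TMM scaling and filterByExpr, with p-values adjusted by the Benjamini-Hochberg method and a threshold of 0.05. The inhibitor and collagen groups (11 libraries, 13548 genes), collagen and control (7, 13092) and inhibitors and control (12, 13213) were fitted separately. The study used DESeq2, which served as an alternative (1.42.0). CPM used TMM over 16 libraries, and log2 CPM for likeness a prior count of 2. Length trends were removed by splines with 4 degrees of freedom. Other alternatives covered normalization, filters, groups in the fit, robust fitting, the replicate block, collagen replicate 3 and each library. The edgeR test was tested on simulated data. Figures used Python 3.11.15 and matplotlib 3.10.9.

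The members, lists and markers were chosen with earlier results of these data known. Named from each list were called genes, at most 4 per comparison by smallest p, otherwise the 2 smallest p with RUNXi. *PLEC* with RUNXi, the fifth called, untested and marker genes named as examples, repressors given by mean level, and genes in leave-out statements were chosen after their values were seen. Intervals and floors cover counting error or library spread only.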

Additional observations from a re-analysis of the deposited data

Results flagged for a closer look

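*CBFB* in collagen replicate 1, at 74.8 CPM, stood apart from the other 3 collagen libraries, its gap to the nearest being 0.885 of the group's range. Chance flags about 1 in 20 groups, 12 groups of values were examined (0.6 expected), and this was the only one. *CLDN1* differed between the inhibitors, with a log2 fold change of -1.25 for DDR1i against RUNXi, and so did *KRT14*, with -0.97. *RUNX2* reached 5.18 CPM in collagen replicate 3, which the main comparisons left out, above the highest control value of 4.07 CPM.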

How the results depend on the processing

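No member was called in any of 372 results under other settings, the lowest adjusted p being 0.0957 (*RUNX1*, RUNXi against collagen, without collagen replicate 1), and 6 had an unadjusted p under 0.05, all of *RUNX1*. The direction was kept in 337 and turned in 35, all of values that were not called. With the length trend removed *RUNX1* turned to -0.0165 (DDR1i against RUNXi) and 0.0485 (collagen against control), and *CBFB* to -0.0835 (DDR1i against control). With at least 10 counts in every library *CBFB* turned to 0.0029 (RUNXi against control), and *RUNX2* could not be tested against the control. The labels do not say whether libraries of the same replicate number form a pair, and the main fits did not use the numbers. Same-number correlations of deviations ran from -0.09 to 0.28. In each comparison 4 to 7 of 8 libraries were closest to their own number, so a pairing remains possible. With the replicate block *RUNX2* turned to 0.10 (RUNXi against collagen), calls rose from 334 to 537 for DDR1i against collagen and from 549 to 759 for RUNXi against collagen, and no call of a member changed. With collagen replicate 3 *RUNX2* turned to -0.0897 (DDR1i against collagen).

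The settings of this paragraph were added after seeing the data. Leaving out the 6 libraries with over 1% of genes near *RUNX2*'s level at 0 turned *RUNX2* to 0.53 (RUNXi against collagen), -0.90 (collagen against control), -0.37 and -0.0207 (RUNXi and DDR1i against control), and *CBFB* to -0.002 (DDR1i against RUNXi) and 0.0215 (RUNXi against control). Leaving out control replicates 2 and 3 turned *RUNX2* to -0.24, -0.31 and -0.0479 in the 3 comparisons with control, and *CBFB* to 0.0099 (RUNXi against control).

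Leaving out single libraries gave *RUNX1* -0.0507 to 0.0805 for DDR1i against RUNXi. It gave *RUNX2* -0.40 to 0.57 (RUNXi against collagen), -0.13 to 0.84 (DDR1i against collagen), -0.45 to 0.60 (collagen against control), -0.26 to 0.52 (RUNXi against control) and -0.0015 to 0.78 (DDR1i against control). It gave *CBFB* -0.0002 to 0.10 (DDR1i against RUNXi), -0.0516 to 0.0512 (RUNXi against control) and -0.0042 to 0.0983 (DDR1i against control). Of the 5 and 4 targets named by the study that were called with RUNXi and DDR1i, 1 and 0 were called with collagen replicate 3, 1 and 1 with the length trend removed, 0 and 0 without the libraries with many zeros, and 1 to 5 and 2 to 5 when single libraries were left out. By merged exon length, also added after seeing the data, *CBFB* per *RUNX1* moved from 2.24 to 3.89 and the *RUNX2* share from 5.10% to 8.60%. The causes were not tested. Depth limits *RUNX2*, with at most 184 counts in a library, and *RUNX3*, with none.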
